A study of Mus musculus with 8 samples.

Results

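Desmosomes are spot-like junctions that tie the membranes of neighbouring cells to the intermediate filaments inside them, and they are best known from skin and heart. Desmogleins and desmocollins are cadherins that bind across the gap between cells. Plakoglobin and the plakophilins are armadillo proteins that hold the cadherin tails, and desmoplakin links this plaque to the filaments. The brain is not regarded as a tissue with classical desmosomes, although single desmosomal genes are transcribed in some neurons, among them the granule neurons of the dentate gyrus, the neurons that receive the cortical input to the hippocampus and that are still being added after birth.

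The 7 desmosomal genes described here were Dsp (desmoplakin), Pkp1, Pkp2 and Pkp4 (plakophilins), Jup (plakoglobin), Dsc2 (desmocollin 2) and Dsg2 (desmoglein 2), out of 32285 genes in the RNA matrices. They were selected by name, with the 4 merged chromatin regions over Dsp, and their RNA levels across cell types in these same libraries were the values on which they had been picked. Their differences between cell types are therefore a description and carry no test. The differences between maternal diets were not used in choosing them and were tested.

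The nuclei came from the hippocampus of C57BL/6J wild-type pups at postnatal day 21, which the study's methods give as male. The dams, 8 weeks old per the labels, ate a diet with folic acid at 2 mg/kg (moderate, MF) or at 20 mg/kg (high, HF) from 2 weeks before mating until the pups were taken. Each diet had 2 libraries, here MF1, MF2, HF1 and HF2, made by the 10x Genomics multiome assay, which reads nuclear RNA and accessible chromatin (ATAC) in the same nucleus. The study calls the libraries of a diet biological replicates but does not state how many pups each library holds. P-values therefore measure the spread between libraries, which may be in part technical.

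Of 14297 barcodes, 11518 nuclei were kept, 2249 to 3473 per library. Total UMIs (unique RNA molecules) over all barcodes, kept or not, were 39223075 to 47460174 per library. Any pair of libraries shared 8 to 20 barcode sequences. Granule neurons fell into 3 groups. Mature granule nuclei (DG-M, 1682) carried 6266 to 7801 CPM (UMIs per 1000000 UMIs of the same sum of nuclei) of 12 mature granule markers together, against 2123 to 3000 in immature granule nuclei (DG-i, 923). The 10 immature markers summed to 3058 to 3991 CPM in DG-i and to 161 to 216 in DG-M. A further 249 nuclei (DG-t), led by Pard3bos1, Tex15, Glra2, Rasef, Cdhr1 and Lepr, met neither definition and held 600 to 856 CPM of the immature and 5178 to 6049 CPM of the mature markers. With possible doublets (a Scrublet score over 0.05) left out, 38 of 65 DG-t nuclei remained in MF1, 35 of 46 in MF2, 61 of 73 in HF1 and 62 of 65 in HF2. None of the 7 genes was among the markers or among the genes that fed the clustering. Library MF1 stood apart in haemoglobin RNA, with 3314 CPM in DG-M against 205 to 264.9 in the other libraries, and HF1 in choroid plexus markers, which summed to 102.8 CPM in DG-M against 2.79 to 11.3. The part of either in the values below was not tested, and the fold changes between diets of the members' RNA in DG-M are given with and without MF1.

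The sequences shown first are those of Dsp (ENSMUSG00000054889.10), the member with its highest RNA level in granule neurons. The gene lies on mouse chromosome 13, bases 38151294 to 38198577 of the plus strand (GRCm38, GENCODE M21). Accessible regions with a peak in all 4 libraries covered its transcript start, 2 sites within introns and a site that reaches a coding exon. The 250 bases before the start and the central 300 bases of the other 3 regions read as follows, 5′ to 3′ on the plus strand, from the RefSeq release of GRCm38. Capitals mark GGGCGG, a GC box of the kind bound by Sp factors, or its reverse complement, and CAGCTG, an E-box read by basic helix-loop-helix factors.
Dsp promoter (chr13:38151044-38151293): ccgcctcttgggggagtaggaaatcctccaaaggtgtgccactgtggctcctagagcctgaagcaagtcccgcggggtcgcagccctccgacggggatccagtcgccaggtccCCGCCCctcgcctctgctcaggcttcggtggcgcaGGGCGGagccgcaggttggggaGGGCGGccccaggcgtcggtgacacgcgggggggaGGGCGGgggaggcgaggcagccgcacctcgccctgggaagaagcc
Dsp first intron (chr13:38152655-38152954): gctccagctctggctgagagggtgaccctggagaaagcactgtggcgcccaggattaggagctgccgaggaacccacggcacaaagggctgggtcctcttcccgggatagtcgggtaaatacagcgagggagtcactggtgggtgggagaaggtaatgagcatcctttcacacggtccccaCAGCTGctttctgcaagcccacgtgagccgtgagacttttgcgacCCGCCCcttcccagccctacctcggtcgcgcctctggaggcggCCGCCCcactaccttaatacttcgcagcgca
Dsp distal intron (chr13:38162756-38163055): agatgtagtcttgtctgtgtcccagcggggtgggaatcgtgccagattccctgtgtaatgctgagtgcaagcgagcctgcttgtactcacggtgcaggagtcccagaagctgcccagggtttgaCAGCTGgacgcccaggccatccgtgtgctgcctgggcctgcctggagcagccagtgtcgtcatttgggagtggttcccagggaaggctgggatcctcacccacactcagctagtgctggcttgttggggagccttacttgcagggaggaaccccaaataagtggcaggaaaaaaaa
Dsp coding exon flank (chr13:38164956-38165255): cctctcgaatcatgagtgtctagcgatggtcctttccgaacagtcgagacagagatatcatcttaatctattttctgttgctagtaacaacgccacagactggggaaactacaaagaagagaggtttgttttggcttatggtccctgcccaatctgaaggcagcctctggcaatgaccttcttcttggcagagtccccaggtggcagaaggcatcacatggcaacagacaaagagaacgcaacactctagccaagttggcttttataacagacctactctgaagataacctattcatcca
The 250 bases before the start held 4 GC boxes, and the first intron window held 2. CAGCTG occurred once in each of the intron windows. The window of the coding exon region, which itself lay in intron beside the exon, held none of the 5 motifs searched on both strands. These were the E-box of neurogenic factors (CAGATG), the E-box above (CAGCTG), the site of AP-1 factors (TGACTCA), the core of the cyclic AMP response element (TGACGT) and the GC box (GGGCGG). The neurogenic E-box, the AP-1 site and the cyclic AMP element occurred in none of the 4 windows. At least 1 GC box was present in 32.7% of 32851 RefSeq promoters of 250 bases, and CAGCTG in 23.9% of 154756 region centres of 300 bases, and a GC box in 13.3% of the same region centres. These shares count windows with 1 match or more, and no share was computed for windows with several. The RefSeq promoter table held 3 of the 7 genes, Dsp, Pkp4 and Jup.

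Dsp had its highest mean level in DG-M among the 20 cell types and clusters with at least 50 nuclei. In DG-M the libraries MF1, MF2, HF1 and HF2 gave 76.0, 50.2, 52.3 and 47.2 CPM, a mean of 56.4 ± 13.2 (SD, n = 4) from 815 UMIs. MF1 was the highest library and the other 3 lay close together, with a mean of 49.9 CPM without MF1. DG-t held 39.1, 17.2, 55.9 and 21.7 CPM in the same order of libraries, a mean of 33.5 ± 17.7. The DG-t values overlapped those of DG-M. In DG-i, Dsp was at 4.04, 0, 6.47 and 14.1 CPM, which rested on 4, 0, 6 and 9 UMIs. All 4 values lay under the lowest DG-M library, and the DG-M mean was 9.18 times the DG-i mean. This ratio is a loose one, since the DG-i mean was 3.50 CPM without HF2 and 14.7 CPM when the junction genes were returned to the clustering.

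The pyramidal neurons of the hippocampus held little Dsp. CA1 nuclei had 0.518 to 3.86 CPM from 10 UMIs and CA3 nuclei 1.36 to 5.21 from 23 UMIs. The DG-M mean was 32.2 times that of CA1 and 18.6 times that of CA3, with DG-M higher in 4 of 4 libraries in each comparison. Inhibitory neurons (INH) had 4.76 ± 2.19 CPM and astrocytes (AST) 1.87 ± 0.41. The third place after DG-M and DG-t went to an unnamed cluster led by Bmp4, Arhgap24 and Enpp6, with 13.1 ± 6.1 CPM. The ranges of all neighbours in this order overlapped.

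**Figure D1:**
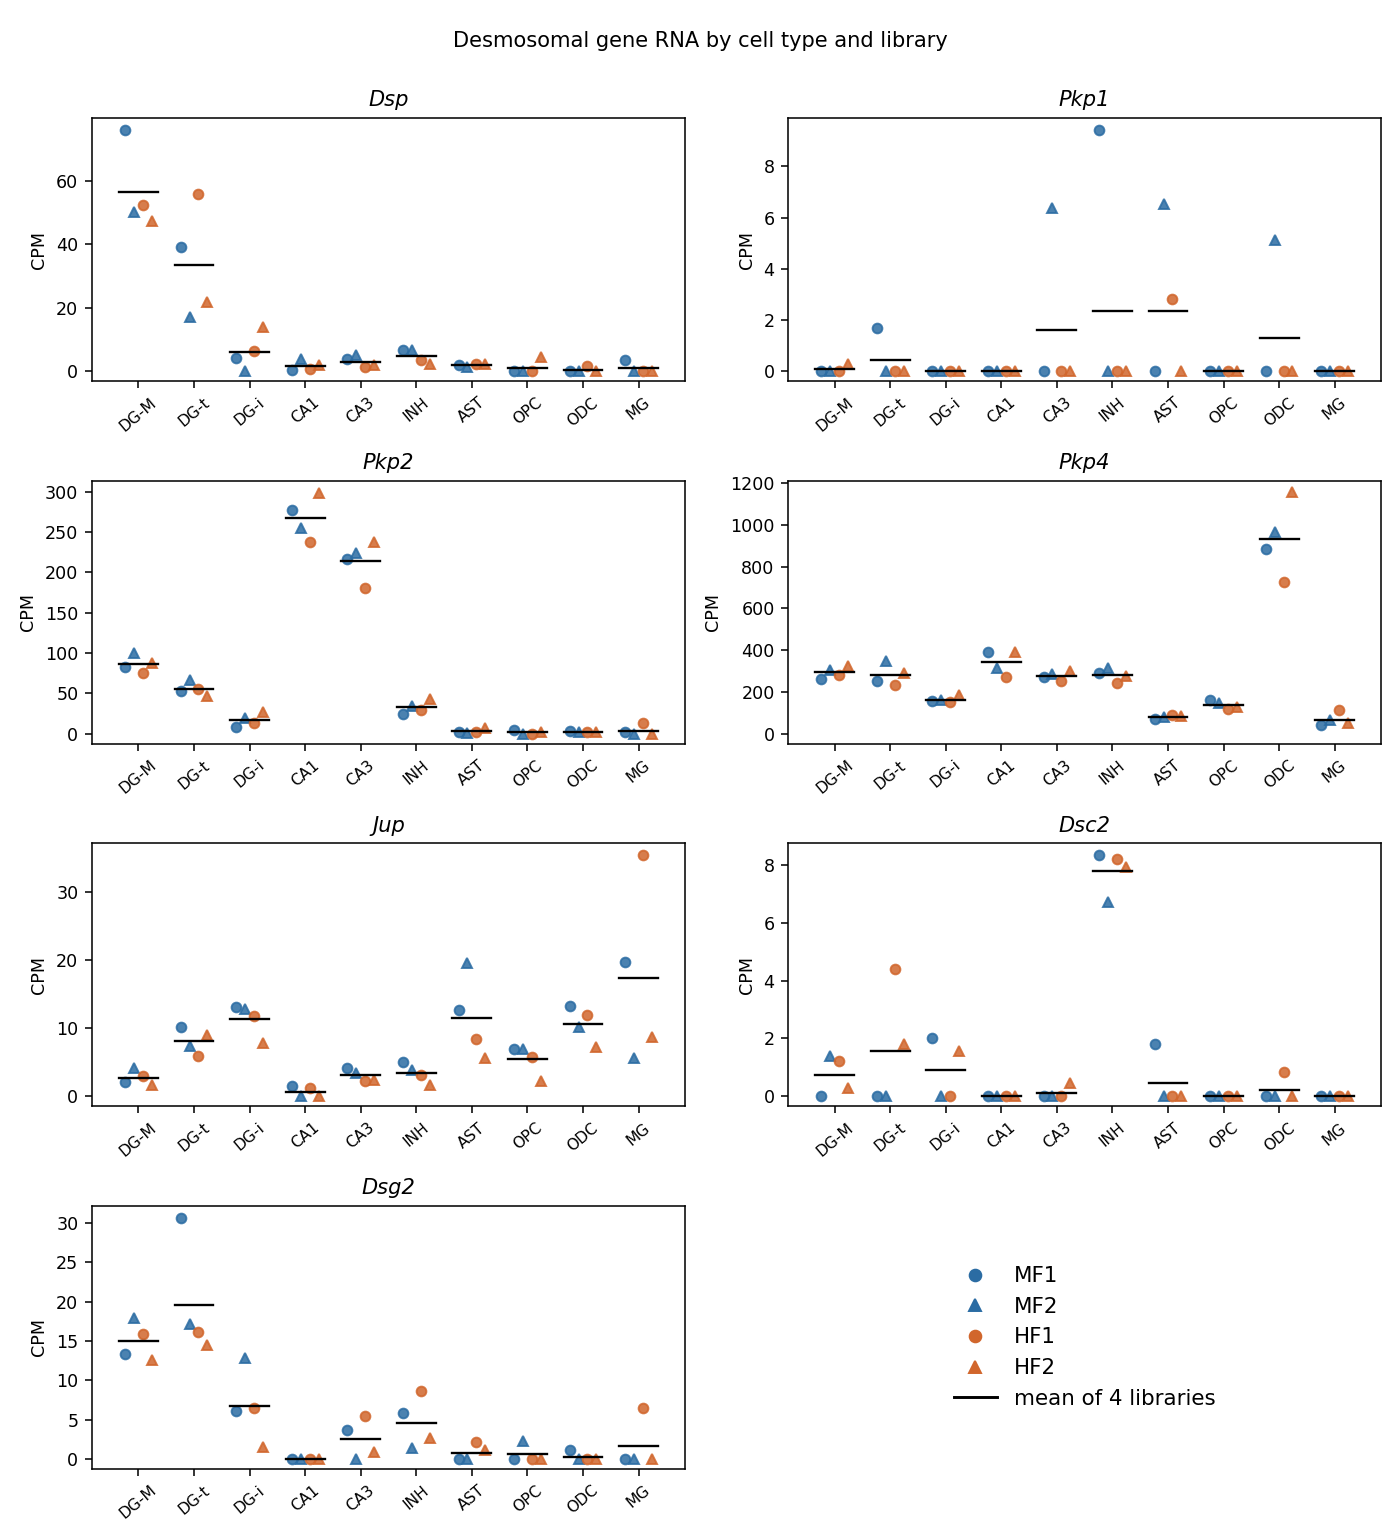
RNA level of the 7 genes in CPM in 10 cell types, 1 point per library and 1 bar per mean of 4 libraries, with blue for MF and orange for HF (linear axes, which differ between genes). Dsp stands highest in DG-M, where MF1 is the top library at 76.0 CPM, Pkp2 in CA1 and CA3, Pkp4 in ODC, and Jup has a higher mean in immature than in mature granule nuclei.

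Nuclei of CA1 and CA3 had medians of 12322 and 18990 UMIs, DG-M 7793.5, DG-t 7449 and DG-i 3032. After each nucleus was thinned to 2000 UMIs, at least 1 Dsp UMI was left in 181 of 1675 DG-M nuclei (10.8%, exact 95% interval 9.36 to 12.4%) and in 14 of 248 DG-t nuclei (5.65%, 3.12 to 9.29%). The share was 1.31% in DG-i (11 of 841, 0.655 to 2.33%), 0.206% in CA1, 0.249% in CA3 and 0.446% in microglia (MG). Microglia, taken as a type without Dsp, had 1 such nucleus of 224 (exact interval 0.0113 to 2.46%), at a median depth of 1761 UMIs and with 461 nuclei left out. That interval is wide and includes the DG-i share, and no share was tested against it. In types with more nuclei the share was 0.280% in astrocytes (3 of 1073, 0.0577 to 0.815%) and 0.149% in oligodendrocytes (1 of 673, up to 0.825%), and the CA1 interval reached 1.14%. The DG-i interval overlapped each of these 3 intervals. Without thinning, the shares were 32.8% in DG-M, 18.9% in DG-t and 1.73% in DG-i, with 7, 1 and 82 nuclei too shallow to be thinned. These intervals pool the nuclei of 4 libraries, which are not replicates. They cover counting error only and are no test between cell types.

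DG-M was made up of 3 clusters, and the Dsp level was not the same in each. The cluster led by Bmp6 (838 nuclei) held 94.6, 82.7, 71.4 and 57.9 CPM in MF1, MF2, HF1 and HF2, the cluster led by Cobll1 and Trhr (579 nuclei) 47.4, 28.5, 38.8 and 39.6, and the cluster with Penk and Mylk3 (265 nuclei) 73.0, 41.0, 32.7 and 46.9. In every library the Bmp6 cluster was the highest of the 3. Dsp was the third of the leading genes of that cluster although it was kept out of the clustering, and since the clusters were drawn from the same RNA no test was made. Haemoglobin genes also led the Bmp6 cluster, at 5499 CPM in MF1 and 264 to 324 in the other libraries. The larger of the immature clusters, led by Sema3c, held 6.27 CPM of Dsp, and the smaller, with Eomes, 3.05 CPM from 1 UMI.

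**Figure D2:**
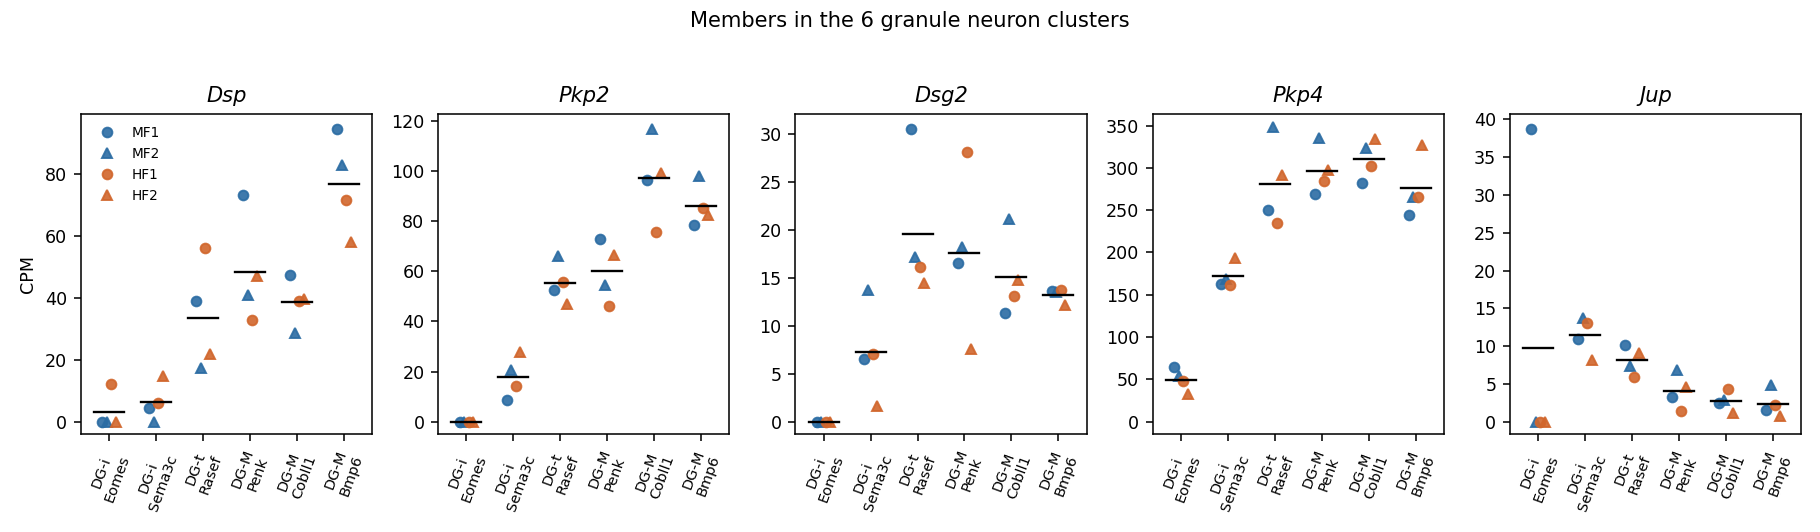
RNA level in CPM of Dsp, Pkp2, Dsg2, Pkp4 and Jup in the 6 granule neuron clusters, with DG-i at the left, then DG-t and the DG-M clusters, 1 point per library and a bar for the mean of 4 libraries. Dsp is highest in the Bmp6 cluster in each library (57.9 to 94.6 CPM), while Jup is higher in the Sema3c and DG-t clusters and at 0 in 3 libraries of the Eomes cluster.

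Of the cadherins, Dsg2 was transcribed in granule neurons and Dsc2 hardly at all. Dsg2 (ENSMUSG00000044393.15, chromosome 18, plus strand, bases 20558074 to 20604521) measured 13.4, 17.9, 15.9 and 12.6 CPM in DG-M, a mean of 14.9 ± 2.4 from 212 UMIs. In DG-t it measured 30.6, 17.2, 16.2 and 14.5 CPM and in DG-i 6.06, 12.9, 6.47 and 1.56. DG-M and DG-t overlapped, DG-i and DG-M overlapped at MF2 of DG-i, and the DG-M mean was 2.22 times the DG-i mean.

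CA1 nuclei had 0 Dsg2 UMIs in all 4 libraries. A count of 3 over the whole group, with the 4 libraries pooled, would be 0.475 CPM, and the DG-M mean was 31.5 times that value. CA3 nuclei held 3.69, 0, 5.45 and 0.940 CPM, and DG-M was 5.93 times the CA3 mean. The highest mean was that of an unnamed cluster led by Npsr1, Gm49906 and Dsc3, with 23.9 ± 4.3 CPM. DG-t was next at 19.6 ± 7.4, then a cluster led by Rai14 and Nxph3 at 19.0 ± 5.7, then DG-M, and the ranges of neighbours in this order overlapped.

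Dsc2 (ENSMUSG00000024331.11, chromosome 18, minus strand, bases 20030633 to 20059554) gave 0, 4, 5 and 1 UMIs in the 4 DG-M libraries, a mean of 0.728 CPM. It was higher in inhibitory neurons, with 8.33, 6.71, 8.20 and 7.93 CPM (7.79 ± 0.74), and in the Npsr1 cluster, with 10.4 ± 2.2. CA1 again had 0 UMIs. Granule neurons thus held Dsc2 in trace counts, 10 UMIs in 1682 DG-M nuclei.

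The plakophilins went 3 ways. Pkp2 (ENSMUSG00000041957.15, chromosome 16, plus strand, bases 16213318 to 16272712), the plakophilin of heart desmosomes, measured 83.4, 100.5, 75.1 and 87.4 CPM in DG-M and 8.09, 19.3, 12.9 and 26.6 in DG-i. All DG-M libraries lay above all DG-i libraries, and the ratio of means was 5.18. In contrast to Dsp, Pkp2 was higher still in pyramidal neurons, with 277, 255, 237 and 299 CPM in CA1 (267 ± 27) and 216, 224, 180 and 237 in CA3 (215 ± 24). DG-M reached 0.324 of the CA1 mean and 0.404 of the CA3 mean. The highest mean, 313.5 ± 50.7 CPM, was that of a small excitatory cluster led by Htr2c and Col6a1.

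Pkp4 (ENSMUSG00000026991.20, chromosome 2, plus strand, bases 59160850 to 59355208), which is also found at adherens junctions, was present in every cell type. In DG-M it measured 261, 304, 283 and 325 CPM (293 ± 28) and in DG-i 156, 162, 151 and 186 (164 ± 16). The groups did not overlap, and the ratio of means was 1.79. Inhibitory neurons (281 CPM) and CA3 (277 CPM) were near DG-M. Oligodendrocytes (ODC) stood above all other types with 933 ± 179 CPM, and their lowest library, at 724, exceeded the highest of the next cluster.

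Pkp1 (ENSMUSG00000026413.12, chromosome 1, minus strand, bases 135871395 to 135919207), the plakophilin of skin, was all but missing. DG-M gave 1 UMI in 4 libraries, and DG-i and CA1 gave 0. The largest counts found elsewhere sat in single nuclei. All 26 UMIs in inhibitory neurons came from 1 nucleus of MF1, and all 11 in CA3 from 1 nucleus of MF2.

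Jup (ENSMUSG00000001552.14, chromosome 11, minus strand, bases 100368958 to 100397763), the plakoglobin gene, ran the other way from Dsp. DG-i held 13.1, 12.9, 11.9 and 7.82 CPM (11.4 ± 2.5, 37 UMIs), DG-t 10.2, 7.35, 5.89 and 9.04 (8.12 ± 1.90), and DG-M 2.10, 4.22, 2.94 and 1.68 (2.73 ± 1.12, 38 UMIs). Each DG-M library lay under each DG-t and DG-i library, and the DG-i mean was 4.18 times the DG-M mean. Jup was also at 11.6 CPM in astrocytes, 10.7 in oligodendrocytes and 17.4 ± 13.5 in microglia. In CA1 it was at 0.703 CPM.

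Divided by the length of the gene body, 3 of the 7 genes reached values of similar size in DG-M. How far length shapes the counts was not tested. Pkp4 stood at 1.51 CPM per kb, Pkp2 at 1.46 and Dsp at 1.19. Dsg2 was next at 0.322, followed by Jup at 0.0949 and Dsc2 at 0.0252. In DG-i the order on the same scale was Pkp4 (0.842), Jup (0.396), Pkp2 (0.281), Dsg2 (0.145) and Dsp (0.130). CA1 combined the highest Pkp2 of these groups, 4.50 CPM per kb, with 0.0371 of Dsp.

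Within DG-M, pooled over libraries, Pkp2, Pkp4 and Dsg2 were not seen at a higher share in nuclei with Dsp. Of the 181 thinned nuclei with a Dsp UMI, 14.9% had one of Pkp2, against 15.3% of the 1494 nuclei without Dsp. The shares were 38.1 and 41.4% for Pkp4 and 2.21 and 3.95% for Dsg2. By library the order varied, and Pkp2 was higher with Dsp in MF1 (16.9 against 14.8%) and HF2 (21.1 against 17.1%). Jup was at 0.552 and 0.669%, and Dsc2 was seen in 1 nucleus of each kind, too few to compare. At 2000 UMIs per nucleus a detection is close to a single molecule, so these shares describe the sampling of nuclei and not the presence of both proteins.

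Chromatin over Dsp was open in granule neurons of each stage. The start region (chr13:38150980-38151917), which also covers an unclassified transcript of the opposite strand, Gm10129, measured 17.0, 16.01, 15.2 and 13.6 ATAC counts per 1000000 counts in all regions (ATAC CPM) in DG-M (15.5 ± 1.4, 555 counts). It measured 14.3 ± 5.0 in DG-t and 10.5, 10.9, 11.2 and 9.84 in DG-i (10.6 ± 0.6). DG-i lay under DG-M in all libraries but above the next type, inhibitory neurons, at 5.56 ± 1.82. CA3 held 3.36 ± 1.79 and CA1 2.40 ± 1.31.

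The ratio of DG-M to DG-i was 9.18 for Dsp RNA, on 19 UMIs in DG-i, and 1.46 for accessibility of the start. Against CA1, the 2 ratios were 32.2 and 6.45. The 2 intron regions had the same order of types at their top. The first intron region (chr13:38152335-38153274) measured 6.65 ± 1.40 in DG-M, 3.20 ± 1.23 in DG-i and 0.837 ± 0.655 in CA1. The distal intron region (chr13:38162435-38163376), whose centre lies 11611 bases after the start, measured 7.13 ± 1.14, 4.64 ± 1.74 and 0.970 ± 0.630. For the distal region the ranges of DG-M and DG-i overlapped, and for the first intron region they did not.

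The region that reaches a coding exon (chr13:38164627-38165583) was the exception among the 4. It measured 10.5, 9.66, 14.3 and 16.6 in DG-i (12.8 ± 3.3), 8.97 ± 4.29 in DG-t and 4.06, 5.73, 8.13 and 7.23 in DG-M (6.29 ± 1.78). Its lowest DG-i library exceeded its highest DG-M library, so it was more open at the stage with less Dsp RNA. CA3 was next at 3.92 ± 0.92 and CA1 was at 1.02 ± 0.87. Summed over the 4 regions, DG-M held 35.5, DG-t 34.3, DG-i 31.2, CA3 13.4 and CA1 5.22 ATAC CPM.

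**Figure D3:**
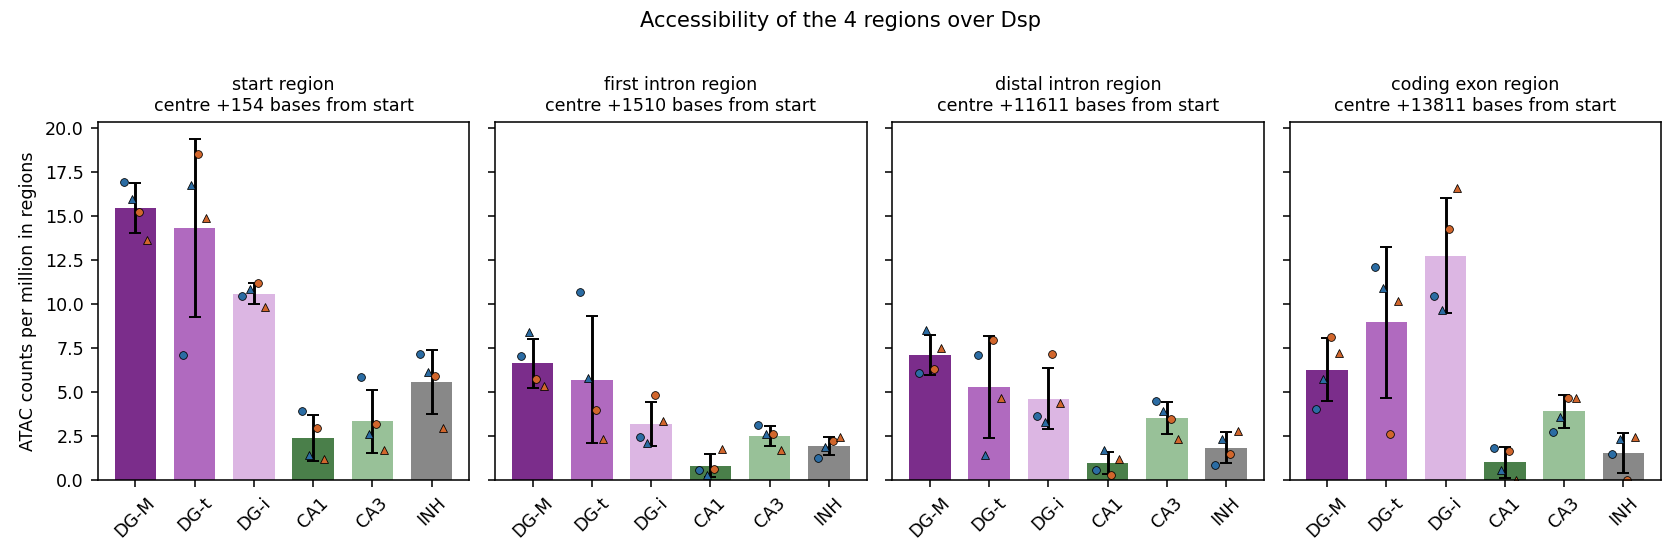
Accessibility of the 4 regions over Dsp, in ATAC CPM (counts per 1000000 counts in all regions), in 6 neuron groups, with bars for the mean, error bars for the SD of 4 libraries and points for the libraries. The start and intron regions are highest in DG-M (15.5, 6.65 and 7.13), while the coding exon region is highest in DG-i (12.8 against 6.29).

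Dsp UMIs and open Dsp chromatin were not tied nucleus by nucleus in a single direction. Among thinned DG-M nuclei, the start region was open in 12.3, 32.3, 17.0 and 5.26% of those with a Dsp UMI in MF1, MF2, HF1 and HF2, and in 14.8, 18.8, 12.8 and 16.1% of those without. The nuclei with Dsp were higher in MF2 and HF1 and lower in MF1 and HF2. For the distal intron region the shares were 6.15, 16.1, 12.8 and 15.8% with Dsp against 6.33, 10.0, 5.23 and 7.53% without, higher in 3 of 4 libraries. The shares with Dsp rest on 31 to 65 nuclei per library.

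For Pkp2, the means of the start region had the same order as the RNA over DG-M, DG-i, CA1 and CA3, and for Jup over DG-M, DG-i and microglia. That of Pkp2 (chr16:16212661-16213610) held a mean of 17.7 ATAC CPM in DG-M, 7.40 in DG-i, 34.3 in CA1 and 30.3 in CA3. That of Jup (chr11:100397448-100398336) held 47.0 in DG-M, 67.6 in DG-i and 90.0 in microglia. That of Dsg2 (chr18:20557800-20558790) held 7.62 in DG-M, 7.20 in DG-i and 0.814 in CA1. For Dsg2 the start held nearly equal means in DG-M and DG-i, while the RNA means differed 2.22 times. The 9 Pkp2 regions with a peak in all 4 libraries summed to nearly equal values in DG-M and DG-i, 52.9 and 52.6 ATAC CPM. Their sums were 77.9 in CA1 and 75.4 in CA3. The 5 such regions of Dsg2 summed to 34.4 in DG-M, 49.3 in DG-i and 14.2 in CA1. The start region of Pkp4 (chr2:59160281-59161166), which also overlaps Ccdc148, held 28.2 in DG-M, 30.6 in DG-i and 27.7 in CA1. For Jup the other types did not all keep the order. Summed over the 6 Jup regions with a peak in all 4 libraries, CA3 (47.5 ATAC CPM) and oligodendrocyte progenitors (54.2) lay under DG-M (56.1). Their RNA means, 3.08 and 5.46 CPM, lay above that of DG-M, 2.73 CPM. In inhibitory neurons, astrocytes, oligodendrocytes and CA1 both measures lay on the same side of DG-M.

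The partners that a desmosome would need were looked up in lists of related genes, whose CPM are not scaled to gene length. Of 12 other desmosomal genes, 11 were under 1 CPM in DG-M, and the highest was Ppl, a plakin, at 3.98 CPM. Evpl, another plakin, was at 0.499, Perp, a membrane protein of desmosomes, at 0.293, and Cdsn at 0.211. Among 15 intermediate filament genes, 6 were under 1 CPM in DG-M, and the highest were the neuronal filament genes Nefl (114 CPM), Ina (75.2) and Nefm (60.2). Krt10, a keratin, was at 19.0 CPM in DG-M, 13.5 in CA1 and 20.3 in astrocytes, and Krt18 gave 1 UMI.

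The adherens junction genes included messages that every neuron group held. Ctnna2, a neuronal alpha-catenin, was at 1208 CPM in DG-M, Ctnnd2, a neuronal delta-catenin, at 882, Cdh2 (N-cadherin) at 348 and Tjp1 at 342. Cdh2 was at 726 CPM in DG-i and 224 in CA1, so it was lower in the stage with more Dsp. Ctnna3, the alpha-catenin that binds plakophilin 2 in heart, was picked out after its values were seen. It was at 82.4 ± 22.2 CPM in DG-M, 152 in DG-i, 6.44 in CA1 and 22.4 in CA3. Of 4 genes for partners of desmoplakin at microtubules, Pafah1b1 (Lis1) was at 345 CPM in DG-M, Mapre1 at 36.9, Ndel1 at 34.6 and Nde1 at 1.6.

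**Figure D4:**
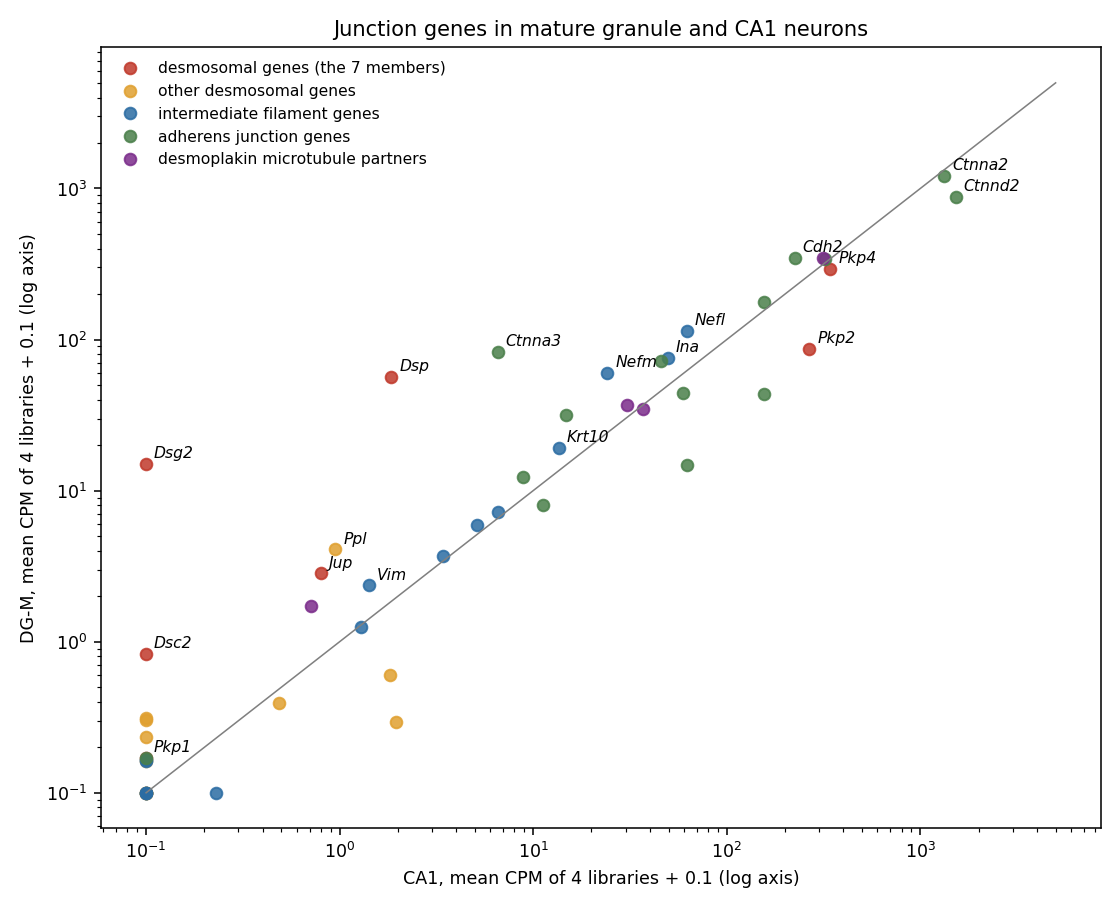
Mean CPM of 4 libraries in CA1 (horizontal) and DG-M (vertical), each with 0.1 added and on log axes, for the 7 desmosomal genes and the 45 genes of 4 related lists, 1 point per gene, with a line of equal levels. Dsp (56.4 against 1.75 CPM) lies far above the line and Pkp2 (86.6 against 267) under it, while most other desmosomal genes sit under 1 CPM in both.

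The genes whose pattern was most like that of Dsp were Pcdh8 (Pearson r = 0.662), a protocadherin, then Fam163b (0.633), Cnih3 (0.614), an AMPA receptor auxiliary subunit, Slc30a3 (0.611), the zinc transporter of synaptic vesicles, and Gm32014 (0.602). The correlations describe log2(CPM + 1) over 56 points, 14 named cell types in 4 libraries, among 10644 genes, and the points of a library share its depth and background RNA. DG-t and the unnamed clusters were not among these types. The order depended on the types compared, and among these 5 genes, over the 9 named types other than the rarer vascular, Cajal-Retzius and cycling groups, it was Fam163b (0.808), Pcdh8 (0.747), Slc30a3 (0.717), Cnih3 (0.670) and Gm32014 (0.566). Slc30a3 was at 44.0 CPM in DG-M, 39.1 in DG-t and 5.66 in DG-i. Cnih3 differed from Dsp within the granule lineage, with 107.7 CPM in DG-M and 129 in DG-i. Gm32014 differed from Dsp in CA1, with 30.4 CPM there against 35.3 in DG-M.

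No difference between the maternal diets was called in any of the 7 genes. In DG-M, 5 of the 7 passed the filter on low counts, and 0 of these 5 were called between HF and MF at an edgeR false discovery rate (FDR) under 0.05 and 1.2-fold, as were 0 of all 12386 genes tested (0%). At an unadjusted p under 0.05 edgeR gave 205 genes in DG-M, none of them a member, and DESeq2 gave 26 with 0 called. With 1 library left out, edgeR called 2 to 11 genes in DG-M, 0 to 8 in DG-t and 1 to 9 in DG-i, none of them a member. Dsp had a log2 fold change of HF over MF of -0.26 ± 0.20 (SE, edgeR FDR 0.9997) in DG-M, and without MF1 it was -0.02.

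The clusters of DG-M made up unequal parts of it in the libraries. The Bmp6 cluster, with the most Dsp, held 257 of 446 DG-M nuclei in MF1, 153 of 342 in MF2, 250 of 470 in HF1 and 178 of 424 in HF2. The diet fit was therefore also made within each cluster, a choice made after the data were seen. In the Bmp6 cluster both MF libraries (94.6 and 82.7 CPM) lay above both HF libraries (71.4 and 57.9 CPM), with a log2 fold change of -0.36 ± 0.22 (edgeR FDR 0.9998, unadjusted p 0.112) and -0.34 without MF1. Dsp was the 1 of 4 members tested there without overlap, against 28.5% of all genes, and 0 members were called (0.0387% of 10349 genes). Dsp was at 0.14 ± 0.26 in the Cobll1 cluster (edgeR FDR 1), where it was 0.45 without MF1, and at -0.49 ± 0.34 in the Penk cluster (edgeR FDR 0.9997), where it was -0.06 without MF1. In these clusters 0 of 4 members were called (0% of 10257 and of 7653 genes), and 0 of 4 were without overlap, against 25.3 and 28.0% of all genes.

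The other members in DG-M had smaller differences or larger errors. The log2 fold change was -0.10 ± 0.21 for Pkp2, 0.19 ± 0.24 for Pkp4, -0.30 ± 0.56 for Jup and -0.04 ± 0.29 for Dsg2. Without MF1 it was -0.30 for Pkp2, 0.00717 for Pkp4, -0.85 for Jup and -0.33 for Dsg2. The 2 libraries of one diet lay on the same side of both libraries of the other in CPM in 0 of these 5 genes, against 23.7% of all genes tested in DG-M. Pkp1 and Dsc2 had too few UMIs for this edgeR test.

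In DG-t, 3 members were tested and 0 called (0% of 7635 genes). Dsp was at 0.47 ± 0.43, Pkp2 at -0.15 ± 0.32 and Pkp4 at -0.15 ± 0.27. With 1 library left out the value of Dsp ran from -0.32, without HF1, to 1.16. Diets did not separate in any of the 3, against 27.5% of all genes. In DG-i, 3 members were tested and 0 called (0% of 9336 genes), with 0.62 ± 0.56 for Pkp2, 0.13 ± 0.26 for Pkp4 and -0.31 ± 0.55 for Jup. With 1 library left out, Pkp2 ran from -0.0388 to 1.3 and Pkp4 from -0.0865 to 0.338. Jup ran from -0.286 to -0.139 where it still passed the filter. Jup had both HF libraries under both MF libraries, 1 of 3 members against 25.5% of all genes. At an unadjusted p under 0.05 edgeR gave 181 genes in DG-t and 149 in DG-i, none of them a member.

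The test of whether the response to diet differed between DG-i and DG-M called 0 of 12324 genes in edgeR (0%). At an unadjusted p under 0.05 edgeR gave 499 genes. Dsp was the only member among them. Its DG-i counts, given below, were too low for this fit to decide whether the responses differed, so no conclusion is drawn. For Pkp2 the log2 difference between the responses was 0.69 ± 0.45, with 0.28 without HF2 and 1.21 without MF2 as the lowest and highest values when a library was left out, and for Pkp4 and Jup it was -0.09 each. Dsp and Dsg2 were too low in DG-i to pass the filter there and entered this fit only through their DG-M counts, so no value is given for them. The Dsp counts in DG-i were 4 and 0 UMIs under MF against 6 and 9 under HF.

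The diets were also compared by the share of nuclei with a UMI. The share of thinned DG-M nuclei with Dsp was 14.6 and 9.12% in the MF libraries against 10.0 and 8.98% in the HF libraries, an overlap, with a difference of -2.37 percentage points (exact permutation test, two-sided, p = 0.667, adjusted p = 1 over 14 shares). Without MF1 the difference was 0.395. In DG-i the MF libraries gave 1.10 and 0% against 2.00 and 1.90% for HF, without overlap, at p = 0.33, the smallest value that the exact permutation test can give with 2 libraries per diet. For Jup in DG-i both MF libraries, at 4.03 and 2.50%, lay above both HF libraries, at 2.40 and 1.90%, with the same exact permutation p. Jup in DG-M was likewise without overlap, at 0.450 and 1.76% for MF against 0.427 and 0.236% for HF (exact permutation p = 0.33). These shares without overlap rested on few nuclei of a single random thinning. Over the 4 libraries they were 11 DG-i nuclei with Dsp, 24 DG-i nuclei with Jup and 11 DG-M nuclei with Jup. In CPM the diets overlapped for Jup in DG-M and did not for Jup in DG-i. The share of all genes without overlap was not computed on this scale.

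Of the remaining 7 cell types, edgeR called 0 members in any, among 9949 genes tested in CA1, 11222 in CA3, 12501 in INH, 9087 in AST, 8650 in ODC and 5518 in MG with 0 called (0%) and 7604 in oligodendrocyte progenitors (OPC) with 4 called (0.0526%). DESeq2 called 0 members in each. With 1 library left out, edgeR called 1 to 41 genes in these types, the most in MG without HF2. The members with an unadjusted p under 0.05 were 2, each in 1 type. Dsp in inhibitory neurons was at 6.52 and 6.71 CPM under MF against 3.51 and 2.31 CPM under HF, a log2 fold change of -1.14 ± 0.48 (edgeR FDR 1). Jup in astrocytes was at 12.7 and 19.6 CPM under MF against 8.49 and 5.57 CPM under HF, -1.17 ± 0.53 (edgeR FDR 0.998). With 1 library left out, the log2 values ran from -1.39 to -0.912 for that Dsp and from -1.46 to -0.716 for that Jup. In both, the MF libraries lay above the HF libraries, and neither passed the threshold over all genes. With possible doublets left out, Dsp no longer passed the filter in INH, so that value rests on the full set of nuclei. The diets did not overlap in 3 of 6 members tested in INH (Dsp, Pkp4 and Jup), against 25.6% of all genes there, and in 2 of 2 in AST (Pkp4 and Jup), against 27.6%. These 2 types are those that held a member with an unadjusted p under 0.05, and no such count is given for the rest. Pkp1 in inhibitory neurons was called with no low-count filter and also without MF2, on the 26 UMIs of 1 nucleus.

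The related lists gave no called gene between diets either. In DG-M, 1 of 12 other desmosomal genes, 7 of 15 intermediate filament genes, 13 of 14 adherens junction genes and 3 of 4 microtubule partners were tested, and 0 were called. Their median log2 fold changes were -0.45 (Ppl alone), -0.05, 0.01 and 0.01, and that of the 5 members -0.10, against 0.00032 over all genes. Nefm, at -0.53 ± 0.21 (edgeR FDR 0.9997), had the one unadjusted p under 0.05 among them in DG-M.

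Accessibility over the members did not separate the diets at the threshold. In DG-M 119388 regions were tested and 3 called (0.00251%), with 0 of the 51 member regions called, and in DG-i 64848 were tested and 0 called (0%), with 0 of 30 member regions. With 1 library left out, 0 to 27 regions were called in DG-M and 2 to 41 in DG-i, none of them over a member. At an unadjusted p under 0.05 edgeR gave 4689 and 2305 regions. In DG-M the log2 fold change of the Dsp start region was -0.17 ± 0.22, of the first intron region -0.46 ± 0.30 and of the distal intron region -0.06 ± 0.29. The coding exon region held 34 and 53 counts under MF against 72 and 69 under HF, a log2 fold change of 0.66 ± 0.30 (edgeR FDR 0.9999, unadjusted p 0.0307). It was 0.43 without MF1 and 0.94 without MF2, the lowest and highest values with a library left out. In DG-i the same region was at 0.62 ± 0.35, the first intron region at 0.87 ± 0.67 and the distal intron region at 0.75 ± 0.53 (edgeR FDR 1 for each), while the start region was at 0.00 ± 0.40.

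**Figure D5:**
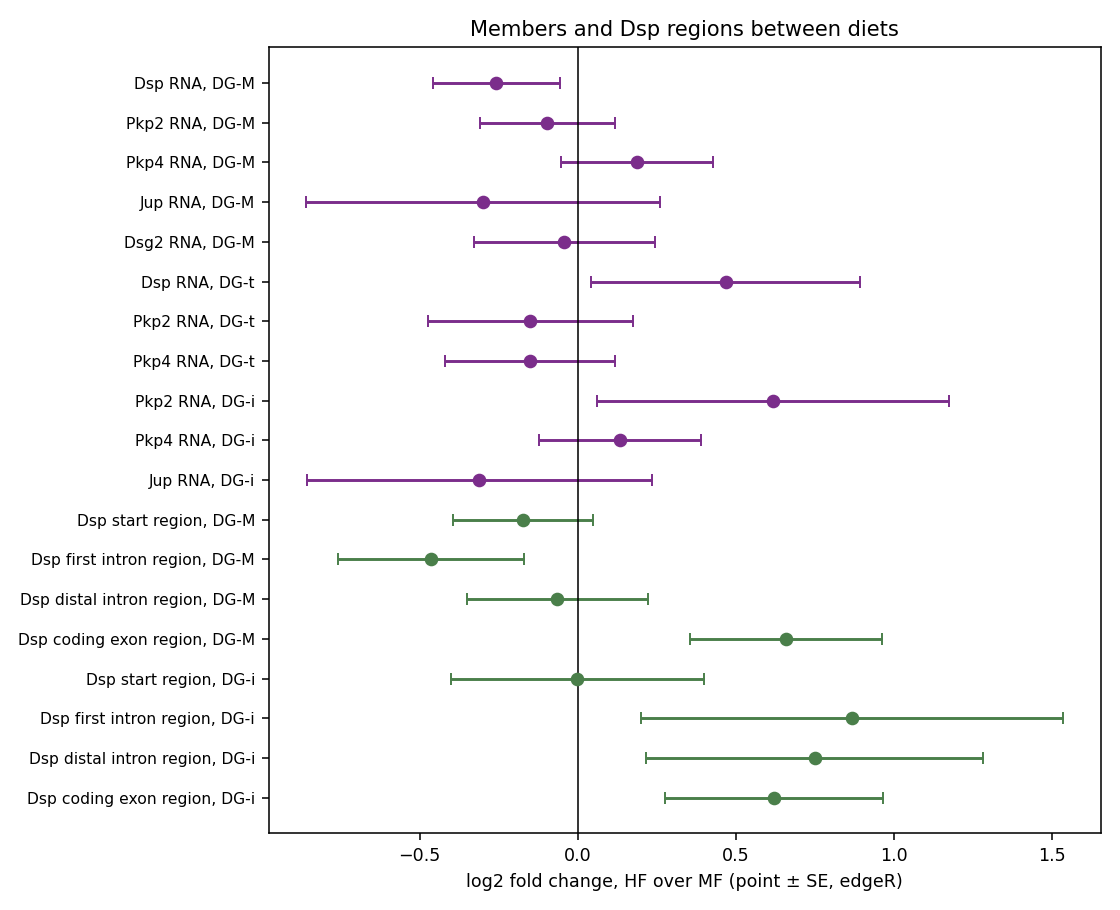
log2 fold change of HF over MF (points) with its SE (bars) for the members tested in DG-M, DG-t and DG-i and for the Dsp regions, from edgeR fits over all genes or regions. None passed the threshold, Dsp RNA in DG-M lies at -0.26 ± 0.20, and the coding exon region of Dsp lies above 0 in DG-M and DG-i (0.66 and 0.62).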

How the data were processed

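The authors made the RNA matrices with Cell Ranger ARC 2.0.1 on mm10; the deposited values are UMI counts per gene and nucleus and ATAC counts per peak and nucleus, not normalized, with peaks called per library. Nuclei were kept at 500 to 7000 genes, 1000 to 70000 ATAC counts and a mitochondrial share under 2%, and clustered with Scanpy 1.11.5 without the 52 junction genes of the lists. Clusters were rebuilt and named from markers, at least 3 among the 50 leading genes, so they may differ from the authors' clusters. Nuclei with a Scrublet score over 0.05 (14.3 to 16.3% per library) were kept, except in an alternative. The median score was 0.0346 in DG-t and 0.0130 to 0.0135 in the DG-M clusters. UMIs were summed per library and cell type and divided by their total (CPM). Overlapping peaks were merged into 253748 regions, of which the 154785 with a peak in all 4 libraries were compared. Diets were tested with edgeR 4.0.16 (TMM, filterByExpr, quasi-likelihood, two-sided) and Benjamini-Hochberg adjustment over all genes or regions, and with DESeq2 1.42.0 as an alternative. The SE of an edgeR value was derived as its absolute log2 fold change divided by the square root of its F statistic. The authors tested nuclei, which are not replicates. The members and lists were chosen with earlier results of these data known. By rule the text names all 7 members, the 4 highest genes of each related list in DG-M (and any 4 times CA1 and CA3) and the 5 genes most like Dsp with a mean of at least 10 CPM. Of these, Dsg1c, Dsg3 and Dsc3 were at 0.201 CPM or less in DG-M.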

Additional observations from a re-analysis of the deposited data

How the results depend on the processing

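Each library was left out in turn, and normalization, tool, filters, thinning, doublets, clustering and counting were varied. The number of members called between diets, 0, became 1 with no low-count filter and 1 without MF2, so the range over libraries left out was 0 to 1. In both cases the gene was Pkp1 in inhibitory neurons, whose UMIs came from 1 nucleus of MF1. The mean Dsp level was 71.4 CPM in DG-M at a higher clustering resolution, and 14.7 CPM in DG-i with the junction genes returned to the clustering, where no separate DG-t was left. The nuclei counted in these groups changed as well. At the higher resolution, clusters led by Trhr and Cobll1 (363 nuclei) and by Mylk3 (222 nuclei) met no marker definition and were not counted in DG-M. With the junction genes returned, DG-i included a cluster of 62 nuclei with a median of 11792 UMIs and a median Scrublet score of 0.0485. The part of these changes in the shifts was not tested.

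Some uncalled diet differences changed sign. With libraries left out, the log2 fold change in DG-M ran from -0.30 to 0.14 for Pkp2, -0.85 to 0.31 for Jup and -0.33 to 0.26 for Dsg2, in DG-t from -0.32 to 1.16 for Dsp, -0.39 to 0.0771 for Pkp2 and -0.43 to 0.19 for Pkp4, and in DG-i from -0.0388 to 1.30 for Pkp2 and -0.0865 to 0.34 for Pkp4. The distal intron region of Dsp ran from -0.29 to 0.21. Within the Cobll1 cluster of DG-M, a fit added after the data were seen, Dsp was at 0.14. Pkp2 in DG-M was at 0.00134 at the higher clustering resolution. Differences in the share of DG-M nuclei ran from -5.13 to 0.395 percentage points for Dsp, -0.288 to 2.89 for Pkp2, -3.13 to 5.13 for Pkp4 and -1.96 to 0.921 for Dsg2. Thinned to 1000 UMIs they were 0.0997 for Dsp, -3.12 for Pkp2 and 0.134 for Dsg2, and for Pkp2 -2.16 without thinning. Of the values recomputed, 393 stayed the same, 25 changed sign, 7 moved by more than their spread and 2 passed the threshold newly. For diet differences, the same means that direction and side of the threshold were kept. For levels and accessibility it means a shift no larger than the SD between libraries.

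With the replicate number as a replicate block, Dsp in DG-M was at -0.25 (edgeR FDR 0.9996) and 0 members were called, while calls over all genes went from 0 to 10 in DG-M, 1 in DG-i, 14 in CA3, 37 in INH and 13 in AST, and over regions from 3 to 5 in DG-M and from 0 to 2 in DG-i. Nothing in the labels says that a number marks a shared litter or day, and same-numbered libraries correlated at 0.0022 to 0.244 in their deviations from the diet means. Pkp1 and Dsc2 in the granule groups, Dsp and Dsg2 in DG-i, and Jup and Dsg2 in DG-t had too few UMIs for the main edgeR test between diets. With doublets left out, Dsp, Jup and Dsg2 could not be tested in INH, and Pkp2 there was at 1.25 (edgeR FDR 0.9999).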

Other observations

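The highest mean levels of Dsg2 and Dsc2 were outside the granule groups, although the range of Dsg2 overlapped that of DG-t. An unnamed cluster of 606 nuclei, with Npsr1, Gm49906 and Dsc3 as its leading genes, held Dsc3 (desmocollin 3) at 31.1, 21.9, 17.8 and 24.8 CPM in MF1, MF2, HF1 and HF2, Dsg2 at 21.4, 19.3, 28.8 and 26.0, and Dsc2 at 10.5, 13.3, 7.95 and 9.92. All 3 were detected in each library. Dsp was at 3.47 ± 0.66 CPM there and Pkp2 at 35.9 ± 6.2, against 56.4 and 86.6 CPM in DG-M. Dsc3 was left out of the clustering and was found among the leading genes of this cluster afterwards, and no test was made.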
